A study of Mus musculus with 6 samples.

Results

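The 8 genes described here encode costimulatory and checkpoint ligands and their closest partners, namely Cd274, Pdcd1lg2, Cd80, Cd86, Cd40, Icosl, Cd47 and Sirpa. They were chosen by name from 24965 genes with an FPKM value, with earlier results of these data known. All 8 of 8 were measured and passed the filter for testing. RNA-seq had been done on donor hematopoietic stem and progenitor cells (HSPCs) isolated 6 h after bone marrow transplantation (BMT), with 3 WT and 3 Hemgn-/- replicates. Hemgn encodes hemogen, a nuclear protein of blood cells. Donors were CD45.2+ mice on a C57BL/6J background, 8 to 10 weeks old, and Hemgn had been disrupted in the whole body with zinc finger nucleases, so donor cells of the Hemgn-/- group lacked the intact gene. All 6 libraries shared the rest of the design. The recipients were CD45.1+ mice with intact Hemgn, irradiated with 9 Gy in doses of 4.5 Gy, and each received 20000000 donor bone marrow cells by vein. The sample labels name CD45.2+Lin-Sca-1+ cells, whereas the series design and the paper add c-Kit to the gate. The sources differ likewise on the injected vein and on the library kit. They do not say whether cells of several recipients were pooled for a replicate.

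T cells read antigen together with a second signal from the cell that presents it. CD80 and CD86 give that signal through CD28 or stop it through CTLA-4, ICOSL acts on ICOS, and CD40 receives help from CD40L on T cells and passes it on to NF-κB. PD-L1, encoded by Cd274, and PD-L2, encoded by Pdcd1lg2, restrain T cells through PD-1, and interferon gamma is a known inducer of PD-L1. CD47 is carried by most cells and tells phagocytes, through SIRPα, not to engulf them, and it is known to protect circulating hematopoietic stem cells. B cells, dendritic cells and macrophages express most of these ligands.

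FPKM counts the fragments of a gene relative to the length of its transcript and to the total of the library. Depth recovered from the steps between low values was 23668015 to 28897360 fragments per library. Hemgn was at 5.64, 2.96 and 4.68 FPKM in WT replicates 1 to 3 and at 0.75, 0.91 and 1.60 in Hemgn-/- replicates 1 to 3. The groups did not overlap, and Hemgn fell by 1.37 on the log2 scale (SE 0.232, adjusted p = 0.0114 by limma), a call that was lost without WT replicate 3 (adjusted p = 0.0503) and with no filter on low values (adjusted p = 0.0613). The targeted edit is a small loss of bases in the coding sequence, so the level of the transcript is only a partial check of the labels.

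Defining genes of the labelled cells were at low levels. Kit, which encodes the c-Kit of the gate, was at 5.50 to 7.24 FPKM over the 6 libraries and Ly6a, which encodes Sca-1, at 8.27 to 17.3 FPKM. The defining stem cell gene Mecom stayed below 1 FPKM in all 6. In contrast, Ngp, a granule gene of neutrophils, which a lineage-negative gate is meant to leave out, was at 26488 to 46692 FPKM. The cells are therefore named below only by their labels.

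Summed markers of other cells differed between genotypes along with the ligands. The counts of called markers stand against 4.37% of all genes tested called higher and 2.09% called lower. The 10 B cell markers summed to 1405 to 1458 FPKM in WT and to 1731 to 1890 FPKM in Hemgn-/- libraries, and 6 of the 10 rose at an adjusted p under 0.05. Cd79b and Cd79a made the largest parts of this sum, with WT means of 487 and 420 FPKM. The markers differed in their log2 fold changes, from -0.04 for Ebf1 and 0.01 for Fcrla to 0.64 for Ms4a1 and 0.98 for Fcer2a. Values per 100 FPKM of B cell markers below depend on this mix. Conventional dendritic cell markers summed to 113 to 117 FPKM in WT and 148 to 159 FPKM in Hemgn-/- libraries, with 2 of 7 tested higher, but the defining genes Zbtb46, Xcr1 and Batf3 lay below 1 FPKM in every library. The 2 called genes, Ccr7 (means of 69.2 FPKM in WT and 91.4 FPKM in Hemgn-/- libraries) and Cd83 (21.4 and 34.4 FPKM), made the largest parts of this sum. Log2 fold changes were -0.01 for Clec9a, -0.02 for Cd209a, 0.08 for Wdfy4, 0.09 for Clec10a and 0.44 for Itgax, none of them called. Plasmacytoid dendritic cell markers ran from 109 to 118 FPKM in WT and from 144 to 168 FPKM in Hemgn-/- libraries, with 3 of 8 higher. No marker in any of the 12 lists was at 0 in all 6 libraries. MHC class II genes, which presenting cells use, summed to 1703 to 2095 FPKM in WT and to 2421 to 2518 FPKM in Hemgn-/- libraries (3 of 7 higher and 1 lower). These genes differed too. Ciita (log2 fold change 0.88), H2-Eb1 (0.84) and H2-DMa (0.55) were called higher and H2-DMb1 (-0.55) lower. Cd74 (0.46), H2-Aa (-0.07) and H2-Ab1 (-0.14) were not called. T and NK cell markers summed to 179 to 203 FPKM against 231 to 252 FPKM (3 of 8 higher), and HSPC markers to 28.6 to 35.6 FPKM against 37.5 to 46.4 FPKM (1 of 9 tested higher). Cd2 and Nkg7 made the largest parts of the T and NK sum, with WT means of 66.1 and 64.9 FPKM. Neither was called (log2 fold changes 0.26 and -0.04). Of the tested HSPC markers 6 had positive and 3 negative changes (Kit -0.18, Hlf -0.15 and Procr -0.08), and only Cd34 was called (0.45). The macrophage and monocyte sum overlapped between genotypes, at 451 to 517 FPKM in WT and 408 to 486 FPKM in Hemgn-/- libraries (3 of 11 tested markers higher and 1 lower). Ly6c2 made the largest part of this sum, with a WT mean of 297 FPKM. By limma Ccr2 (log2 fold change 1.00, adjusted p = 0.0014), Adgre1 (0.51, adjusted p = 0.0343) and Csf1r (0.50, adjusted p = 0.0161) rose. C1qb fell (-0.44, adjusted p = 0.0234).

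The sums of the granulocyte and erythroid lists were lower in the Hemgn-/- group, where 2.09% of all genes tested were called lower. Neutrophil markers summed to 72250.4 to 77761 FPKM in WT and to 46074 to 51526 FPKM in Hemgn-/- libraries (5 of 8 lower). Erythroid markers summed to 449 to 534 FPKM against 27.3 to 42.2 FPKM (3 of 6 lower), and eosinophil and basophil markers to 419 to 508 FPKM against 252 to 256 FPKM (3 of 6 lower). The 3 called genes of the latter list were those of eosinophils, Epx (log2 fold change -2.72), Prg2 (-1.99) and Prg3 (-1.51). Mcpt8 (-0.10), Cpa3 (0.27) and Ms4a2 (0.45), of basophils and mast cells, were not called. Endothelial sums of 16.5 to 17.5 FPKM in WT and 18.0 to 21.2 FPKM in Hemgn-/- libraries, and megakaryocyte sums of 12.8 to 14.7 FPKM and 12.4 to 15.1 FPKM, were low in both. By limma 0 of 5 tested endothelial and 0 of 4 megakaryocyte markers had an adjusted p under 0.05, against 2 and 1 at an unadjusted p under 0.05 and 1 and 0 with limma voom. In bulk RNA, fewer cells of a type and less RNA per cell cannot be told apart, and the part of these cells in the results on the ligands was not tested.

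**Figure D1:**
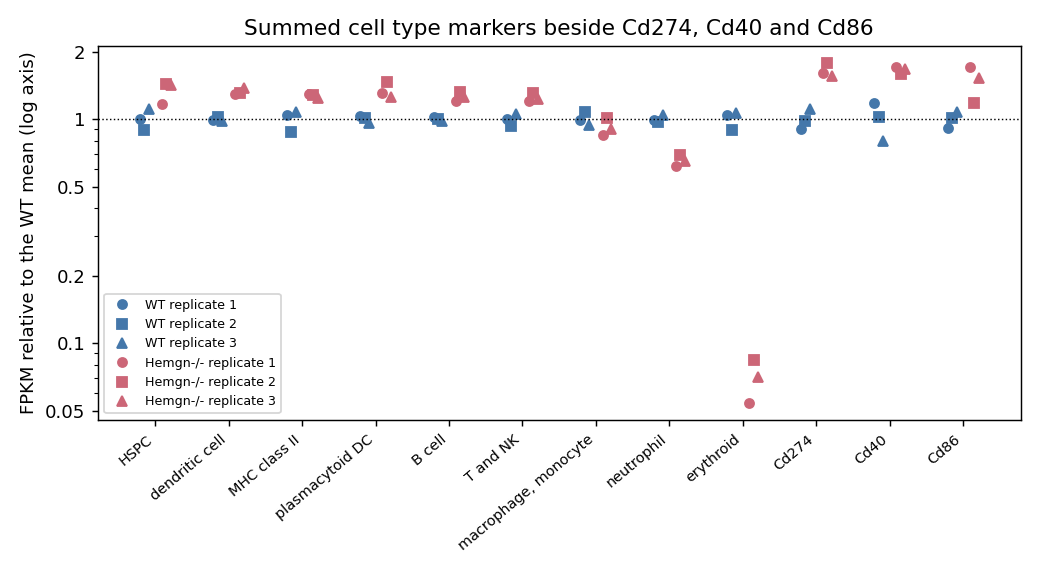
Summed FPKM of 9 marker lists and the FPKM of Cd274, Cd40 and Cd86 in each library, divided by the WT mean of the same item, on a log axis. Blue points are the 3 WT and red points the 3 Hemgn-/- libraries. The Hemgn-/- mean was 1.26 times the WT mean for B cell markers and 0.654 times for neutrophil markers, against 1.65 times for Cd274 and 1.66 times for Cd40. Single B cell markers differed, with log2 fold changes from -0.04 for Ebf1 to 0.98 for Fcer2a.

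The first comparison asked which of the 8 genes differed between transplanted Hemgn-/- and WT cells. Cd274 and Cd40 rose, Cd86 was higher in every Hemgn-/- library without passing the test, and Icosl had a higher mean with overlapping groups. Pdcd1lg2, Cd80, Cd47 and Sirpa had close means in both genotypes, with Hemgn-/- to WT ratios of 0.975 for Cd47 to 1.07 for Pdcd1lg2. By limma, 2 of the 8 genes had an adjusted p under 0.05 and were higher in Hemgn-/- cells, against 4.37% of the 13739 genes tested (6.46% in either direction). None was lower (0 of 8, also 0 at an unadjusted p under 0.05 and 0 with limma voom, background 2.09%). At an unadjusted p under 0.05 with a change of 1.5-fold or more on the log2(FPKM + 1) scale, 2 of 8 were higher, against a background of 4.1%, and 0 of 8 lower, against 2.74%. The groups did not overlap for 3 of 8 genes, all higher in Hemgn-/- cells, against 19.2% of the genes tested, and 0 of 8 lower without overlap, against 8.18%. The median log2 fold change of the 8 was 0.26, and that of all genes tested was 0.09. The 8 genes were chosen with earlier results of these data known, so these counts and medians are descriptions only.

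**Figure D2:**
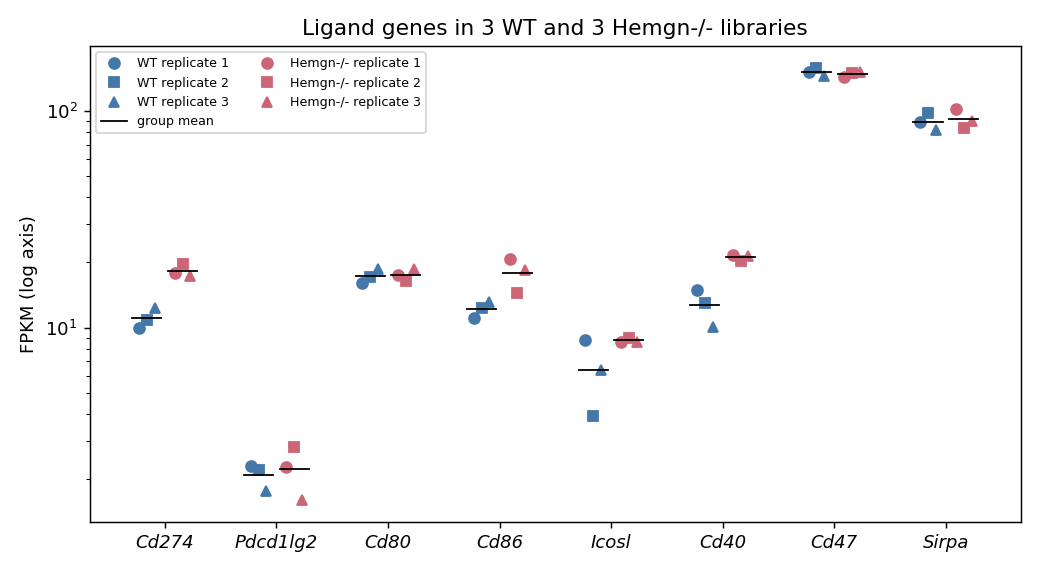
FPKM of the 8 ligand genes in each library on a log axis, with WT in blue, Hemgn-/- in red, one marker shape for each replicate number and a bar at the group mean (n = 3 each). Only for Cd274, Cd86 and Cd40 did all 3 Hemgn-/- libraries lie above all 3 WT libraries.

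Cd274 and Pdcd1lg2, the genes of both PD-1 ligands, are neighbours on chromosome 19 and are transcribed in the same direction. In the GENCODE M21 annotation of GRCm38, Cd274 (ENSMUSG00000016496) lies at chr19:29367455-29388095 and Pdcd1lg2 (ENSMUSG00000016498) at chr19:29410919-29471161, both on the plus strand, with 22824 bases between them. The 250 bases before the RefSeq start of each gene are given so that the upstream sequences of these neighbours can be set side by side, chr19:29367188-29367437 for Cd274 and chr19:29410669-29410918 for Pdcd1lg2, GRCm38.p6, plus strand. Capitals mark matches to a searched motif.
Cd274: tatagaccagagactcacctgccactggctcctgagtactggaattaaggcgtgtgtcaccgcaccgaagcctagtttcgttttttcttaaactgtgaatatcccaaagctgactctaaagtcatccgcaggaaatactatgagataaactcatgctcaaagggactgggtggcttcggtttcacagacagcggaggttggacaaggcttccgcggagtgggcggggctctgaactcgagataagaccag
Pdcd1lg2: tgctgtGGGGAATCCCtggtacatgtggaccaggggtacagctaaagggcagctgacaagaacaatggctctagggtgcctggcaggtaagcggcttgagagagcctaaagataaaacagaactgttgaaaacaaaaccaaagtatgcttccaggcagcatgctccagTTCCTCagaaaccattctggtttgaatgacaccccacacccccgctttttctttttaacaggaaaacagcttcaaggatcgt
Both strands were searched for the GAS motif of STAT dimers (TTCNNNGAA, in 7.02% of 32851 windows of this length), the ISRE core of interferon regulatory factors (2.98%), the PU.1 core (GAGGAA, 23.3%) and the κB consensus of NF-κB (7.25%). The Cd274 window held no exact match to these motifs, and looser forms of them were not searched. The Pdcd1lg2 window held a κB match on both strands 244 to 235 bases upstream and a PU.1 core on the minus strand 82 to 77 bases upstream. Windows were found for 5 of the 8 genes, and of the other 3 of these 5 only that of Icosl held a match, a κB consensus 111 to 102 bases upstream. A match is a description of letters and not of a bound site.

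Cd274 was at 10.0, 10.9 and 12.4 FPKM in WT replicates 1 to 3 and at 17.9, 19.8 and 17.3 FPKM in Hemgn-/- replicates 1 to 3. Every Hemgn-/- library lay above every WT library, and the means were 11.1 ± 1.19 and 18.3 ± 1.29 FPKM (SD, n = 3 each), a ratio of 1.65. Cd274 rose by 0.68 on the log2 scale (SE 0.107, 95% interval 0.44 to 0.92, adjusted p = 0.0081 by limma). The values rested on 857 to 1873 fragments per library. The call was kept under all 16 alternatives, with log2 fold changes of 0.58 to 0.80 and adjusted p from 0.0036 to 0.0393. Per 100 FPKM of B cell markers, Cd274 was at 0.685, 0.764 and 0.879 in WT and at 1.03, 1.05 and 0.968 in Hemgn-/- libraries, again without overlap. An antisense gene, AC119228.1, lies within the locus, and whether fragments were counted by strand is not given in the sources used here.

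Pdcd1lg2 had the lowest level of the 8 genes. It was at 2.29, 2.21 and 1.75 FPKM in WT and at 2.28, 2.81 and 1.60 FPKM in Hemgn-/- libraries. The groups overlapped, with the highest and the lowest value both in Hemgn-/- libraries, and the means were 2.08 ± 0.287 and 2.23 ± 0.607 FPKM. The log2 fold change was 0.05 (SE 0.183, adjusted p = 0.898 by limma), with an interval of -0.36 to 0.47 that leaves changes of either sign possible. At 76 to 121 fragments per library it was also the most thinly counted of the 8. It overlaps the antisense gene A930007I19Rik, at 0.467 to 1.05 FPKM. The ratio of Cd274 to Pdcd1lg2 within a library was 4.37, 4.93 and 7.04 in WT and 7.83, 7.03 and 10.8 in Hemgn-/- libraries. The ratios of the groups overlapped by a narrow margin, and the difference of 0.66 on the log2 scale had p = 0.2 (exact two-sided permutation test, adjusted p = 0.3 over 3 ratios), where 0.1 is the smallest p that 3 against 3 libraries allow. No test here could show a difference between the changes of these neighbours.

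Cd80 and Cd86, the ligand pair shared by CD28 and CTLA-4, lie apart on chromosome 16. Cd80 (ENSMUSG00000075122, chr16:38455561-38496335, plus strand) was at 16.0, 17.2 and 18.6 FPKM in WT and at 17.5, 16.4 and 18.7 FPKM in Hemgn-/- libraries. The genotypes interleaved, and the means of 17.3 ± 1.30 and 17.6 ± 1.14 FPKM differed by less than the spread of either group. The log2 fold change was 0.02 (SE 0.0961, adjusted p = 0.918 by limma), and its interval of -0.20 to 0.24 leaves out changes as large as that of Cd274.

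Cd86 (ENSMUSG00000022901, chr16:36603869-36666081, minus strand) was at 11.1, 12.3 and 13.1 FPKM in WT and at 20.8, 14.4 and 18.5 FPKM in Hemgn-/- libraries. All Hemgn-/- libraries lay above all WT libraries, with Hemgn-/- replicate 2 close to the highest WT value. The means were 12.2 ± 1.02 and 17.9 ± 3.21 FPKM, a ratio of 1.47. The log2 fold change of 0.51 (SE 0.137, 95% interval 0.20 to 0.82) had an unadjusted p of 0.0052 and an adjusted p of 0.0670 by limma over all genes tested, so Cd86 did not pass the test. It passed without Hemgn-/- replicate 2 (log2 fold change 0.65, adjusted p = 0.0286) and with values rescaled to the same total, TPM (0.62, adjusted p = 0.0365). Per 100 FPKM of B cell markers the genotypes overlapped, at 0.758, 0.865 and 0.931 in WT and 1.20, 0.763 and 1.04 in Hemgn-/- libraries.

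Cd86 relative to Cd80 separated the genotypes. The ratio within a library was 0.691, 0.718 and 0.703 in WT and 1.18, 0.878 and 0.990 in Hemgn-/- libraries, so WT libraries were close together and all below the Hemgn-/- libraries. The means were 0.704 ± 0.0135 and 1.02 ± 0.154. The difference of 0.52 on the log2 scale reached the smallest p this design allows, p = 0.1 (exact two-sided permutation test, adjusted p = 0.3 over 3 ratios). These 3 ratios were chosen after the values had been seen, and no p under 0.05 can be had from them.

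Icosl (ENSMUSG00000000732, chr10:78069302-78083913, plus strand), whose product engages ICOS on T cells, was at 8.77, 3.89 and 6.36 FPKM in WT and at 8.60, 8.97 and 8.61 FPKM in Hemgn-/- libraries. The Hemgn-/- values were tightly grouped, while WT spread from the lowest value to one within the Hemgn-/- range. The means were 6.34 ± 2.44 and 8.73 ± 0.212 FPKM, and the log2 fold change of 0.46 (SE 0.220, 95% interval -0.04 to 0.96) did not pass the test (adjusted p = 0.271 by limma). It moved from 0.20 without WT replicate 2 to 0.70 without WT replicate 1, so WT libraries decided its size. Per 100 FPKM of B cell markers Icosl overlapped between genotypes, at 0.273 to 0.601 in WT and 0.475 to 0.497 in Hemgn-/- libraries.

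Cd40 (ENSMUSG00000017652, chr2:165055627-165072948, plus strand), the receptor through which antigen-presenting cells receive T cell help, was at 15.0, 13.0 and 10.1 FPKM in WT and at 21.7, 20.2 and 21.4 FPKM in Hemgn-/- libraries. The Hemgn-/- libraries were nearly level and all above WT. The means were 12.7 ± 2.44 and 21.1 ± 0.779 FPKM, a ratio of 1.66, and Cd40 rose by 0.71 on the log2 scale (SE 0.134, 95% interval 0.40 to 1.01, adjusted p = 0.0181 by limma). The call was kept under 11 of 16 alternatives. It was lost without Hemgn-/- replicate 1 (adjusted p = 0.0542), 2 (0.0510) or 3 (0.0742), with no filter on low values (0.0639) and without the trend in limma's variance (0.0649), at log2 fold changes of 0.69 to 0.74. Per 100 FPKM of B cell markers Cd40 was at 1.03, 0.913 and 0.720 in WT and at 1.26, 1.07 and 1.20 in Hemgn-/- libraries, without overlap but with WT replicate 1 close to Hemgn-/- replicate 2.

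Cd47 and Sirpa, the signal that spares cells from phagocytosis and its receptor, had the highest levels of the 8. Cd47 (ENSMUSG00000055447, chr16:49800533-49915010, plus strand) was at 151, 159 and 145 FPKM in WT and at 143, 150.2 and 151 FPKM in Hemgn-/- libraries. The groups overlapped, with means of 152 ± 6.66 and 148 ± 4.43 FPKM. The log2 fold change of -0.04 (SE 0.0641, adjusted p = 0.791 by limma) had the narrowest interval of the 8 genes, -0.18 to 0.11, on 18881 to 23020 fragments per library. It depended on the scaling, at -0.14 with median-ratio scaling (adjusted p = 0.280), -0.14 with limma voom (adjusted p = 0.188) and 0.053 with TPM (adjusted p = 0.648). Sirpa (ENSMUSG00000037902, chr2:129592835-129632228, plus strand) was at 88.8, 97.5 and 82.0 FPKM in WT and at 103, 83.5 and 90.4 FPKM in Hemgn-/- libraries. Its groups overlapped too, with means of 89.4 ± 7.75 and 92.2 ± 9.73 FPKM, and its log2 fold change was 0.04 (SE 0.0973, 95% interval -0.18 to 0.26, adjusted p = 0.842 by limma). Sirpa shares sequence with the Sirpb1 genes, and how such fragments were assigned is not given in the sources used here. The ratio of Cd47 to Sirpa was 1.70, 1.63 and 1.77 in WT and 1.39, 1.80 and 1.67 in Hemgn-/- libraries, which overlapped (p = 0.7, exact two-sided permutation test, adjusted p = 0.7 over 3 ratios).

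**Figure D3:**
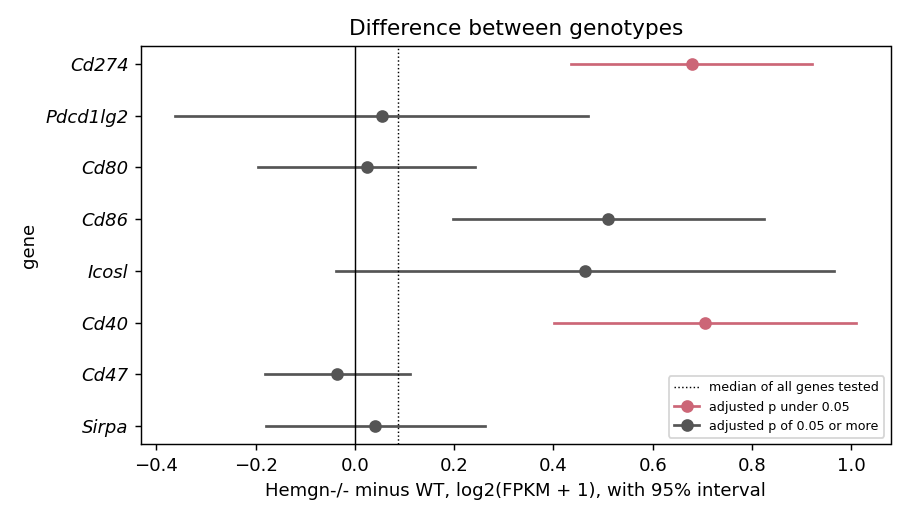
Log2 fold change of each ligand gene, Hemgn-/- minus WT on the log2(FPKM + 1) scale, with its 95% interval from limma (n = 3 libraries per group). Red marks an adjusted p under 0.05, and the dotted line is the median of all genes tested, 0.09. Cd274 and Cd40 passed the test, at 0.68 and 0.71, while the intervals of Pdcd1lg2, Cd80, Icosl, Cd47 and Sirpa include 0 and the sign of Pdcd1lg2, Cd80, Cd47 and Sirpa turned under some scalings.

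By level, the 8 genes fell into steps. The mean FPKM over 6 libraries was 149.9 for Cd47 and 90.8 for Sirpa, which were the 98.0 and 96.3 percentiles of the genes tested, and every library of Cd47 lay above every library of Sirpa. Cd80 (17.4), Cd40 (16.9), Cd86 (15.0) and Cd274 (14.7) followed at mean FPKM close to each other, and neighbours in this order overlapped in their ranges. The order of these 4 by group mean was not the same in both genotypes. Cd80 had the highest mean of the 4 in WT, at 17.3 FPKM, before Cd40 (12.7), Cd86 (12.2) and Cd274 (11.1), and the lowest in Hemgn-/- libraries, at 17.6 FPKM, after Cd40 (21.1), Cd274 (18.3) and Cd86 (17.9). Icosl at 7.53 FPKM and Pdcd1lg2 at 2.16 FPKM, the 64.1 and 33.2 percentiles, each lay below the gene before without overlap. Cd47 alone made up 42.7% to 50.3% of the summed FPKM of the 8 genes, and Sirpa 26.4% to 30.9%. The sum itself was 290 to 316 FPKM in WT and 316 to 334 FPKM in Hemgn-/- libraries, and its largest parts, Cd47 and Sirpa, did not pass the test. Levels of Pdcd1lg2, Cd80 and Cd47 rest on gene lengths that do not match the annotation used here, so their place in the order is less certain.

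**Figure D4:**
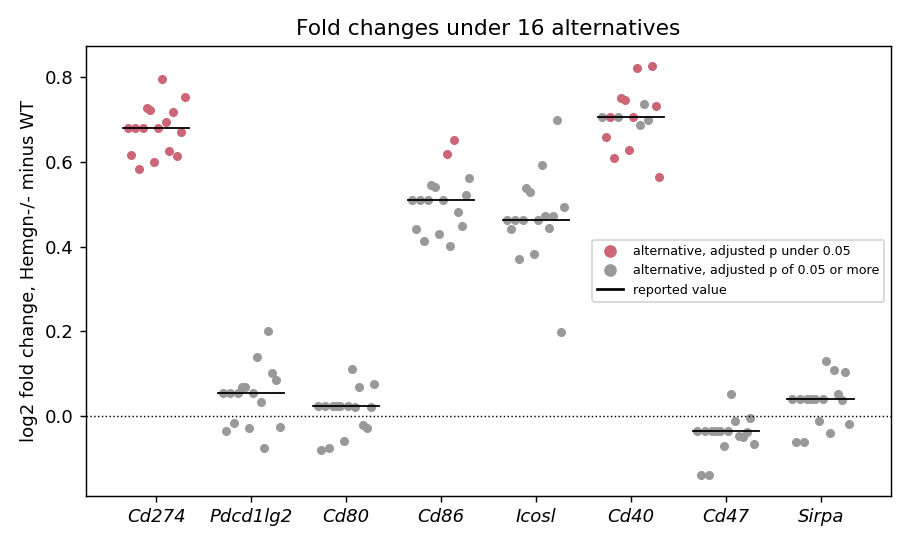
Log2 fold change of each ligand gene, Hemgn-/- minus WT, under 16 alternative settings (points), with red for an adjusted p under 0.05 and a bar at the reported value. All 16 points of Cd274 are red, 11 of Cd40 and 2 of Cd86, and the points of Pdcd1lg2, Cd80, Cd47 and Sirpa lie on both sides of 0.

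In the list of counter-receptors the T cell partners of the ligands were scarce. The list also holds Rgmb and Thbs1, of which Thbs1 encodes a ligand and not a receptor. Pdcd1, which encodes PD-1, was at 1.45, 0.587 and 0.766 FPKM in WT and 1.81, 1.35 and 1.06 FPKM in Hemgn-/- libraries, which overlapped (log2 fold change 0.33, adjusted p = 0.465 by limma). Cd28 (0.07, adjusted p = 0.900), Ctla4 (-0.35, adjusted p = 0.406), Icos (-0.53, adjusted p = 0.389) and Cd40lg (-0.16, adjusted p = 0.790) did not pass the test either, at log2 fold changes as given. Rgmb, a partner of PD-L2, was below 1 FPKM in every library and was not tested. Thbs1, which encodes thrombospondin-1, a soluble ligand of CD47, was at 214, 215 and 201 FPKM in WT and 147, 168 and 161 FPKM in Hemgn-/- libraries. Its groups did not overlap, and Thbs1 fell by 0.40 on the log2 scale (adjusted p = 0.0125 by limma), a call that was lost on leaving out WT replicate 1 or Hemgn-/- replicate 3 and when limma's variance had no trend. By limma 0 of 6 tested genes of this list rose (background 4.37%), also 0 at an unadjusted p under 0.05 and 0 with limma voom. Only Thbs1 fell (background 2.09%), and the median log2 fold change of the list was -0.26.

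Of 25 other genes of the B7 family and of checkpoint contacts, 22 had values and 18 were tested. Of the tested genes 4 rose and 1 fell (background 4.37% and 2.09%), with a median log2 fold change of 0.19. Btla, an inhibitory receptor of lymphocytes, was at 16.5, 17.2 and 14.8 FPKM in WT and at 33.1, 26.1 and 31.2 FPKM in Hemgn-/- libraries (log2 fold change 0.85, adjusted p = 0.0036 by limma). Its partner Tnfrsf14, which encodes HVEM, was at 26.3, 27.7 and 23.6 FPKM in WT and 37.9, 41.3 and 45.6 FPKM in Hemgn-/- libraries (0.66, adjusted p = 0.0062). Both members of this receptor and ligand pair were higher in every Hemgn-/- library, as were 19.2% of all genes tested. They were named for their call, so this adds no support. Cd200, which encodes a ligand that restrains myeloid cells, had the largest log2 fold change of the list, 1.01 (adjusted p = 0.0109), from 2.14 to 3.45 FPKM in WT to 5.79 to 7.63 FPKM in Hemgn-/- libraries. Cd48, the ligand of CD244, rose by 0.48 (adjusted p = 0.0332), and the adhesion receptor gene Ceacam1 fell by 0.39 (adjusted p = 0.0385). Without Hemgn-/- replicate 3, 2 genes of this list were called higher, and the call of Ceacam1 was lost on leaving out any one library other than WT replicate 2.

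In the TNF-superfamily list 2 of 9 tested genes rose and 0 fell by limma (background 4.37% and 2.09%), with a median of 0.22. At an unadjusted p under 0.05, 3 were higher and 1 lower. Limma voom called 0 higher and 1 lower, and 0 were called higher without Hemgn-/- replicate 3, so the calls of both genes below were lost there. Tnfsf14, which encodes LIGHT, another partner of HVEM, was at 11.0, 10.2 and 10.0 FPKM in WT and 15.8, 15.1 and 17.6 FPKM in Hemgn-/- libraries, a log2 fold change of 0.59 (adjusted p = 0.0103). Tnfrsf9, which encodes the T cell costimulator 4-1BB, was at 3.99, 2.87 and 4.49 FPKM in WT and 5.65, 10.9 and 7.56 FPKM in Hemgn-/- libraries (0.89, adjusted p = 0.0496). Both genes, named for their call, were higher in all Hemgn-/- libraries, as were 19.2% of all genes tested. The adjusted p of Tnfrsf9 was just under the threshold, and 1 gene of the list was called without WT replicate 1, 2 or 3 or Hemgn-/- replicate 2.

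Downstream of CD40, 3 of 18 tested genes rose and 0 fell (background 4.37% and 2.09%), and the median was 0.20. At an unadjusted p under 0.05, 8 were higher and 0 lower, and limma voom called 3 higher and 0 lower. Birc3, which encodes cIAP2, a partner of TRAF2 at CD40, was at 57.8, 54.3 and 56.0 FPKM in WT and 80.7, 74.2 and 77.8 FPKM in Hemgn-/- libraries (0.46, adjusted p = 0.0068 by limma). Nfkb2, the NF-κB subunit gene of the alternative route from CD40, rose by 0.43 (adjusted p = 0.0227) and Ikbkb, a kinase gene of the classical route, by 0.39 (adjusted p = 0.0486). Values rescaled to the same total gave 6 called genes in this list and median-ratio scaling 1, and 1 was called without WT replicate 1 or 3 or Hemgn-/- replicate 2 or 3.

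In the CD47 and SIRPα arm 3 of 20 tested genes rose and 1 fell (background 4.37% and 2.09%), with a median of 0.08, close to that of all genes. Ptpn6, which encodes SHP-1, a phosphatase recruited by SIRPα, was at 243, 251 and 242 FPKM in WT and 316, 312 and 340.0 FPKM in Hemgn-/- libraries (0.39, adjusted p = 0.0074 by limma). Sirpb1b, an activating relative of Sirpa with closely similar copies, rose by 0.78 (adjusted p = 0.0099), and the kinase gene Ptk2b by 0.43 (adjusted p = 0.0382). Qpctl, which encodes the enzyme that modifies CD47 for binding by SIRPα, was at 7.53, 6.98 and 7.85 FPKM in WT and 5.23, 4.25 and 4.71 FPKM in Hemgn-/- libraries, a log2 fold change of -0.56 (adjusted p = 0.0245). The call of Qpctl was lost without WT replicate 1 or 3 or Hemgn-/- replicate 2 or 3, with no filter on low values, without the trend and with the replicate block.

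In the list of the interferon gamma route to PD-L1 and of PD-L1 stability 3 of 16 tested genes rose and 0 fell (background 4.37% and 2.09%). The median was 0.20. At an unadjusted p under 0.05, 7 were higher and 0 lower, and limma voom called 2 higher and 0 lower. Irf1, the factor that carries interferon gamma signals to Cd274, was at 52.1, 52.0 and 42.6 FPKM in WT and 76.9, 82.7 and 88.3 FPKM in Hemgn-/- libraries (0.75, adjusted p = 0.0038 by limma). Ifngr2, a chain of the interferon gamma receptor, rose by 0.45 (adjusted p = 0.0158). Cmtm6, which encodes a protein that keeps PD-L1 at the cell surface, was at 418, 405 and 408 FPKM in WT and 513, 461 and 493 FPKM in Hemgn-/- libraries (0.25, adjusted p = 0.0440). All 3 were higher in every Hemgn-/- library, as were 19.2% of all genes tested, but they were named for their call, so this adds no support. Only 1 gene of the list was called without WT replicate 3 or Hemgn-/- replicate 3.

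**Figure D5:**
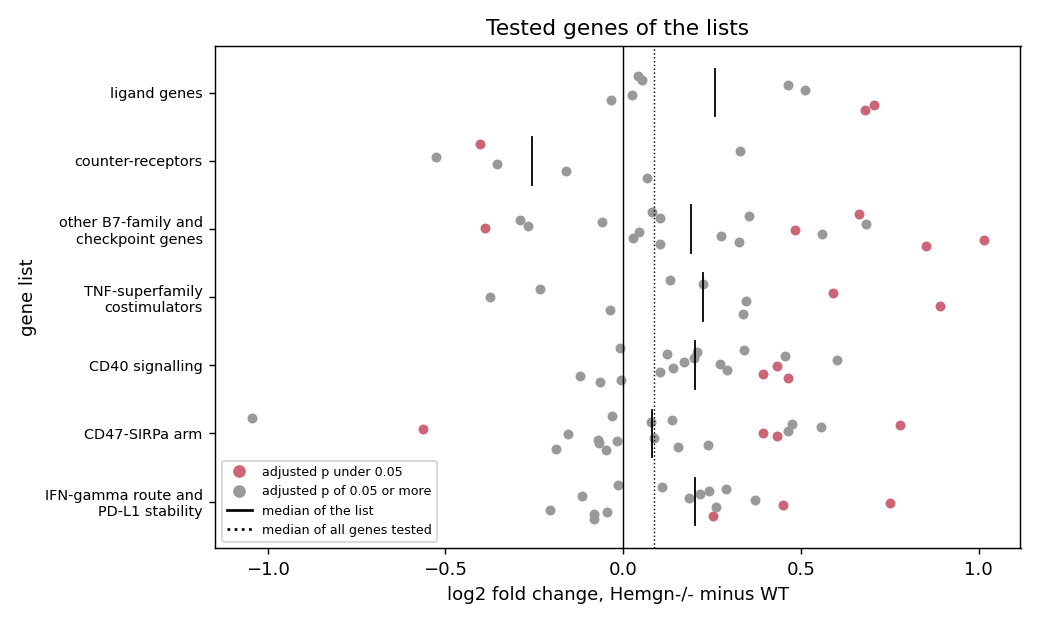
Log2 fold change, Hemgn-/- minus WT, of every tested gene of the 8 ligand genes and of 6 related lists, with red for an adjusted p under 0.05 by limma, a bar at the median of each list and a dotted line at the median of all genes tested, 0.09. The list medians run from -0.26 for the counter-receptors to 0.26 for the ligand genes.

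The genes with the pattern most like a ligand gene over the 6 libraries were sought among those with a mean of at least 5 FPKM, by Pearson's r of log2(FPKM + 1). The 6 points share libraries and the genotype contrast, and about 6292 genes were compared, so the values are descriptions. The pattern of Cd274 was most like those of Rabep2 (r = 0.995), Acat2 (0.995) and Gpr18 (0.994), and that of Cd40 most like those of Arhgap45 (0.996), Taf15 (0.995) and Osbpl5 (0.995). For Cd86 they were Trim34a (0.993), Zcchc2 (0.992) and Sdha (0.990). None of the 8 ligand genes was among the 3 nearest of another.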

How the data were processed

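The authors deposited FPKM values per gene and library. The submitters' processing notes name HISAT2 2.1.0, Bowtie2 2.2.3, TopHat2, HTSeq 0.6.0 and GRCm38 without their roles. The columns were assigned to 3 WT and 3 Hemgn-/- samples by title (0 columns unmapped), and 24921 of 24965 genes matched GENCODE M21. Genes that exceeded 1 FPKM in any library were tested as log2(FPKM + 1) with limma 3.58.1 in R 4.3.3 (lmFit, eBayes with a trend, no covariate), two-sided, and p-values were adjusted by Benjamini-Hochberg over these 13739 genes. This scale understates the change of low genes. Fragments were recovered from the FPKM steps (95.7% of 13472 genes with at most 100 fragments came out whole within 0.05), and cover counting error only, since amplified cDNA is not made of independent molecules. Ratios within a library were compared with exact permutation tests (scipy 1.17.1). Promoter windows were taken from RefSeq, with 250 bases before the start.

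The genes and lists were chosen with earlier results of these data known. Of each list, at most 6 genes with an adjusted p under 0.05 and the largest change are named, besides the main receptors of the 8 genes. Among other genes, markers are named that define a list, make the largest part of its sum or show how its genes differ. Some list genes are counted but their own values are not reported here. The limma fit was run on simulated data with independent normal noise, which cannot check the calls made in these libraries. Alternatives were other pseudocounts, filters, scalings and variance models, voom on the recovered fragments, a replicate block and leaving out each library. The fragments for voom were computed with GENCODE M21 lengths. For Pdcd1lg2, Cd80 and Cd47 these lengths do not give whole fragments, so their counts in voom are approximate and differ from the fragments given above. The paper gives the replicates as biological ones. The sources used do not say whether each came from 1 recipient.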

Additional observations from a re-analysis of the deposited data

How the results depend on the processing

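Direction and call of the 8 genes were recomputed under 16 alternatives. Cd274 kept both under all of them. The log2 fold changes of the genes near 0 turned sign, to -0.016, -0.027 and -0.034 for Pdcd1lg2, -0.074, -0.059 and -0.080 for Cd80 and -0.061, -0.011 and -0.060 for Sirpa with median-ratio scaling, quantile normalization and limma voom, and to 0.053 for Cd47 with TPM, which was -0.14 with median-ratio scaling (unadjusted p = 0.058) and -0.14 with voom (unadjusted p = 0.030). Leaving out each library in turn gave -0.074 to 0.20 for Pdcd1lg2 (-0.025 without WT replicate 3, -0.074 without Hemgn-/- replicate 2), -0.027 to 0.076 for Cd80 (-0.027 without WT replicate 1, -0.020 without Hemgn-/- replicate 3) and -0.038 to 0.11 for Sirpa (-0.018 without WT replicate 3, -0.038 without Hemgn-/- replicate 1). It gave 0.40 to 0.65 for Cd86, called at 0.65, which TPM also called at 0.62, and 0.56 to 0.82 for Cd40, whose call was lost at 0.71 with no filter and at 0.71 without the trend. Hemgn ran from -1.58 to -1.20 without each library and lost its call at -1.37 with no filter. It was -1.94 with a pseudocount of 0.1, -2.04 with 0.01 and -2.13 with voom.

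Among the 8 genes 1 was called with no filter and 1 without the trend, and 1 to 2 when a library was left out. Among all genes the calls were 600 higher and 287 lower (67.6% higher). They were 309 and 157 with no filter, 237 and 153 without the trend, 341 and 386 with median-ratio scaling (46.9% higher), 368 and 346 with quantile normalization (51.5%), 1049 and 238 with TPM (81.5%) and 361 and 454 with voom (44.3%), and without each library 223 to 451 higher and 150 to 237 lower. Over all genes the median change, 0.09 on the log2 scale, was 0.01 with median-ratio scaling, quantile normalization and voom, and 0.18 with TPM.

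The lists held few calls, and their counts moved under some settings. Counter-receptors had 0 lower without the trend and 0 to 1 without each library. The other B7 and checkpoint genes had 2 higher and 0 lower with no filter, 0 lower with TPM and 0 lower without the trend, and 2 to 5 higher and 0 to 1 lower without each library. The TNF-superfamily list had 1 higher with a pseudocount of 0.1 or 0.01, with no filter, with median-ratio scaling, with quantile normalization, without the trend and with the replicate block, 0 with voom and 0 to 2 without each library, and 1 lower with median-ratio scaling, quantile normalization and voom. CD40 signalling had 1 higher with median-ratio scaling and quantile normalization, 6 with TPM, 0 without the trend, 1 with the replicate block and 1 to 3 without each library. The CD47 and SIRPα arm had 5 higher with TPM and 1 without the trend, and 0 lower with no filter, without the trend and with the replicate block, and 0 to 1 lower without each library. The list of the interferon gamma route had 7 higher with TPM, 1 without the trend and 1 to 3 without each library. The cause was not tested.

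Libraries of the same replicate number did not deviate together (correlations of -0.04, -0.01 and 0.01). Such correlations cannot show whether samples were matched by number, and the main fit did not pair them. With the replicate number as a block, 410 genes were higher and 226 lower, and the log2 fold change of each of the 8 genes and its call were the same as without it. With 3 libraries per group, exact tests cannot pass 0.05. Depth limits Pdcd1lg2 most.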
